A study of Homo sapiens with 66 samples.

Results

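Long noncoding RNAs are transcribed and often capped and spliced like mRNAs but carry no protein sequence, and where in the cell they stay differs from RNA to RNA. MALAT1, NEAT1 and KCNQ1OT1, which are kept in the nucleus, were examined beside NORAD, which is exported to the cytoplasm, and beside TUG1 and OIP5-AS1. These 6 RNAs were found by matching their symbols to the Ensembl identifiers of the count files, so 6 of the 58051 genes in the files are described. All 6 passed the filter on low counts, with 17812 genes tested in all. They are MALAT1 (ENSG00000251562, chr11:65497640-65508073, plus strand), NEAT1 (ENSG00000245532, chr11:65422774-65445540, plus strand), KCNQ1OT1 (ENSG00000269821, chr11:2597308-2700003, minus strand), NORAD (ENSG00000260032, chr20:36045618-36051018, minus strand), TUG1 (ENSG00000253352, chr22:30969245-30979395, plus strand) and OIP5-AS1 (ENSG00000247556, chr15:41283958-41322392, plus strand), in GRCh38 and GENCODE release 44. That release gives TUG1 the type protein_coding and the other 5 the type lncRNA. KCNQ1OT1 lies on the strand opposite KCNQ1, and OIP5-AS1 overlaps NUSAP1 and OIP5, so that reads of these genes may be shared with a neighbour, depending on how strand was used in counting, which the sources used here do not settle. NORAD overlaps no other annotated gene.

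RNA-seq was performed on human DLD-1 colorectal cancer cells whose genome was edited so that a transport protein is fused to AID, the auxin-inducible degron, and is destroyed once auxin is given to cells that make the plant ligase TIR1. The lines are AID-NeonGreen-TPR (AID-TPR), NUP153-NeonGreen-AID (NUP153-AID) and NUP50-NeonGreen-AID (NUP50-AID), in which the tagged proteins form the basket on the nuclear side of the pore, GAP1-NeonGreen-AID (RANGAP1-AID, the GTPase activator of Ran), AID-FLAG-NXF1 (AID-NXF1, the main mRNA export receptor) and AID-HA-GANP1 (AID-GANP, the scaffold of the TREX-2 export complex, made from MCM3AP). Tagged lines carry the tag on both alleles and TIR1 knocked in at RCC1, and the genotype of the parental DLD-1 cells is given as original. Each of 22 groups holds 3 libraries, 66 in all. Auxin was given at 1 mM for 2 h to AID-TPR, NUP153-AID, RANGAP1-AID, AID-NXF1 and parental cells and for 3 h to NUP50-AID and AID-GANP cells, with later libraries at 8 h (NUP153-AID, RANGAP1-AID and AID-TPR) or 9 h (NUP50-AID). AID-TPR libraries come in 2 sets of replicate labels, 1 to 3 and old1 to old3, and the libraries at 8 h exist in the old set alone. AID-TPR cells were also given Actinomycin D (ActD), which blocks transcription, for 2 h, alone or together with auxin, and these were compared with untreated libraries of the old set. RNA came from whole cells after removal of ribosomal RNA, so RNA in the nucleus and in the cytoplasm cannot be told apart, and neither can fewer cells holding an RNA and less of it in each.

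MALAT1 gathers in nuclear speckles, where splicing factors are stored, and NEAT1 is the scaffold of paraspeckles, bodies built from NEAT1 and proteins such as NONO and SFPQ. The ends of MALAT1 and of the long form of NEAT1 are not made by a poly(A) signal: RNase P cuts off a short tRNA-like RNA. U-rich and A-rich stretches before the cut fold into a triple helix that protects the end. Counts per gene do not tell the long and the short form of NEAT1 apart. KCNQ1OT1 is transcribed from the unmethylated paternal allele of an imprinting centre inside KCNQ1 and stays at its own chromosome, where it holds neighbouring genes silent. NORAD binds Pumilio proteins in the cytoplasm through many copies of their short recognition sequence. TUG1 is found in both the nucleus and the cytoplasm, and OIP5-AS1 is known for its conserved site for the microRNA miR-7.

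The protected 3′ ends of MALAT1 and NEAT1 and a Pumilio-binding stretch of NORAD are shown because they are the features by which the nuclear RNAs and the exported one are best known. They were read from the GRCh38 genome, 5′ to 3′ on the strand of the gene. The pair gives the 110 bases up to the RNase P cut, at chr11:65506007-65506116 for MALAT1 and chr11:65445431-65445540 for NEAT1, with the longest run of bases that both share (16 bases, which holds a U-rich stretch) and the A-rich stretch at the end in capitals. Other U-rich bases are left in lower case.
MALAT1 3′ end: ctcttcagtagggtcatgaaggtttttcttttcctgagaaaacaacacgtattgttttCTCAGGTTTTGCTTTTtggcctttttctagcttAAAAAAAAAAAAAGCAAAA
NEAT1 3′ end: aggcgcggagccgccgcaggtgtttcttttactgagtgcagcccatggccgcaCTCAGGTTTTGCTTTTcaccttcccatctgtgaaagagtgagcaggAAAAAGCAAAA
The shared run is at 1 place in each of the 2 genes, at 0 in the other 4 members, and in 1 of 210002 windows of 300 bases taken along 17569 transcripts. It was chosen as the longest run that both share, so its presence in both was fixed. The windows were laid end to end and can miss a copy that crosses a border. MALAT1 and NEAT1 were not set apart from the transcripts. These counts are therefore no test of how rare the run is.
The last sequence is a stretch of 300 bases of NORAD, chr20:36049462-36049761 on the minus strand and bases 1258 to 1557 of the RNA, with 3 copies of TGTANATA, the Pumilio recognition sequence, in capitals (N is any base).
NORAD: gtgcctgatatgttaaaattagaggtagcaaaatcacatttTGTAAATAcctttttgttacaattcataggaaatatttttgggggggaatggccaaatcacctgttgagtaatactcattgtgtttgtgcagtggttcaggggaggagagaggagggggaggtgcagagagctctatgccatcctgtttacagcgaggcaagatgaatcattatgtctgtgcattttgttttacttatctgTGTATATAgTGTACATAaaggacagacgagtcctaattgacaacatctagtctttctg
Of the transcript windows of this length, 3.05% hold at least 1 copy and 0.0329% (69 windows) hold at least 3. The NORAD stretch was chosen for holding the most copies, over all starts, and the transcript windows were laid end to end. These shares are therefore no test of how rare the stretch is. Along its 5401 bases NORAD has 15 copies on its own strand and 1 on the other. MALAT1 has 0 on its own strand, NEAT1 6, KCNQ1OT1 11, TUG1 3 and OIP5-AS1 5, over gene sequences of 10434, 22767, 102696, 10151 and 38435 bases. By copies per kb (2.78), NORAD is at rank 3 of 9048 transcripts of at least 3000 bases. These are matches of letters and not measured binding sites.

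Totals per library ranged from 18943661 to 55411411 counts, with a median of 32285399. The 6 RNAs were well covered: the lowest and highest counts over the 66 libraries were 7529 and 70521 for MALAT1, 651 and 6951 for NEAT1, 261 and 1566 for KCNQ1OT1, 2263 and 22141 for NORAD, 1614 and 8173 for TUG1, and 1488 and 7797 for OIP5-AS1. Replicates differed by more than counting noise in all 66 pairs (chi-square per degree of freedom 4.07 to 67.4). Of 9 epithelial markers 8 were above 1 CPM (counts for each 1000000 in the library) in every library, all but LGALS4, and their summed level was 5674 to 15891 CPM. None of 5 markers of other cell types was above 1 CPM in every library, and their sum was 0.19 to 3.10 CPM. A degron removes protein and not mRNA, so the mRNA levels of the tagged genes do not check the labels.

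In 2 places the libraries went against their labels. CYP1A1 and TIPARP, targets of the aryl hydrocarbon receptor that respond to auxin, were higher in libraries labelled auxin than in untreated ones at 2 or 3 h in all 6 tagged lines. In DLD-1 cells the libraries labelled auxin had 9.55 to 14.5 CPM of CYP1A1 and those labelled untreated 171 to 201 CPM, the opposite order. They are called the libraries labelled auxin and labelled untreated below. In the old AID-TPR set, the library labelled 2 h old2 had 44.4 CPM of CYP1A1 and 139 CPM of TIPARP, beside 421 and 349 CPM and 424 and 463 CPM in its group. The library labelled 8 h old2 had 282 and 493 CPM, beside 89.1 and 41.2 CPM and 199 and 135 CPM. Each of the 2 libraries thus lay with the group of the other time. Neither was moved, and results that rest on them are given with and without them.

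Short genes held counts in some libraries and 0 in others, so the libraries were not all counted alike. The RANGAP1-AID libraries are given as a set of their own. Short annotated genes that lie inside MALAT1, NEAT1, KCNQ1OT1 and TUG1 held counts in the 24 AID-TPR (not old), DLD-1, AID-NXF1 and AID-GANP libraries and in the 9 RANGAP1-AID libraries, and 0 in the 33 old AID-TPR, ActD, NUP153-AID and NUP50-AID libraries. For MALAT1 these inner counts were 526 to 3189 in the 24 libraries, for TUG1 851 to 1644, for NEAT1 85 to 335 and for KCNQ1OT1 10 to 39. The short RNA cut from MALAT1 by RNase P had 1 to 13 counts in the 24 libraries, 0 in the 33 and 1 to 6 in the 9, too few to follow. In untreated AID-TPR cells, the mean level of KCNQ1OT1 in the plain set was 0.448 times that in the old set, NEAT1 0.674 times and TUG1 1.49 times, and the other 3 lay between 0.872 and 0.967 times. Auxin groups were therefore tested only against untreated libraries of their own line and label set. The labels do not say which AID-TPR set the ActD libraries belong with. They are numbered 1 to 3 like the plain set and follow the counting pattern of the old set, against which they were tested. NORAD and OIP5-AS1 hold no such short genes.

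In every line the exported RNA and MALAT1 were the most abundant of the 6 and KCNQ1OT1 the least. Per kb of exon, so that RNAs of different length can be compared, NORAD stood at 94.2 ± 6.02 CPM per kb (SD, n = 3) in the DLD-1 libraries labelled untreated, MALAT1 at 51.2 ± 5.01, TUG1 at 11.3 ± 0.126, OIP5-AS1 at 4.86 ± 0.544, NEAT1 at 4.29 ± 0.215 and KCNQ1OT1 at 0.224 ± 0.0234. In that order only the neighbours OIP5-AS1 and NEAT1 overlapped. NORAD was first in 7 of the 8 untreated groups and MALAT1 was in AID-GANP cells, at 117 ± 34.0 against 84.8 ± 3.00 CPM per kb for NORAD. The libraries of NORAD and MALAT1 overlapped in untreated old AID-TPR and RANGAP1-AID cells. TUG1 came after these 2 and KCNQ1OT1 last in all 8 groups. OIP5-AS1 and NEAT1 took the places between, with OIP5-AS1 ahead in 7 groups and behind in AID-GANP, and they overlapped in AID-GANP, old AID-TPR, RANGAP1-AID and DLD-1 cells. In NUP153-AID cells TUG1 and OIP5-AS1 overlapped as well.

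**Figure D1:**
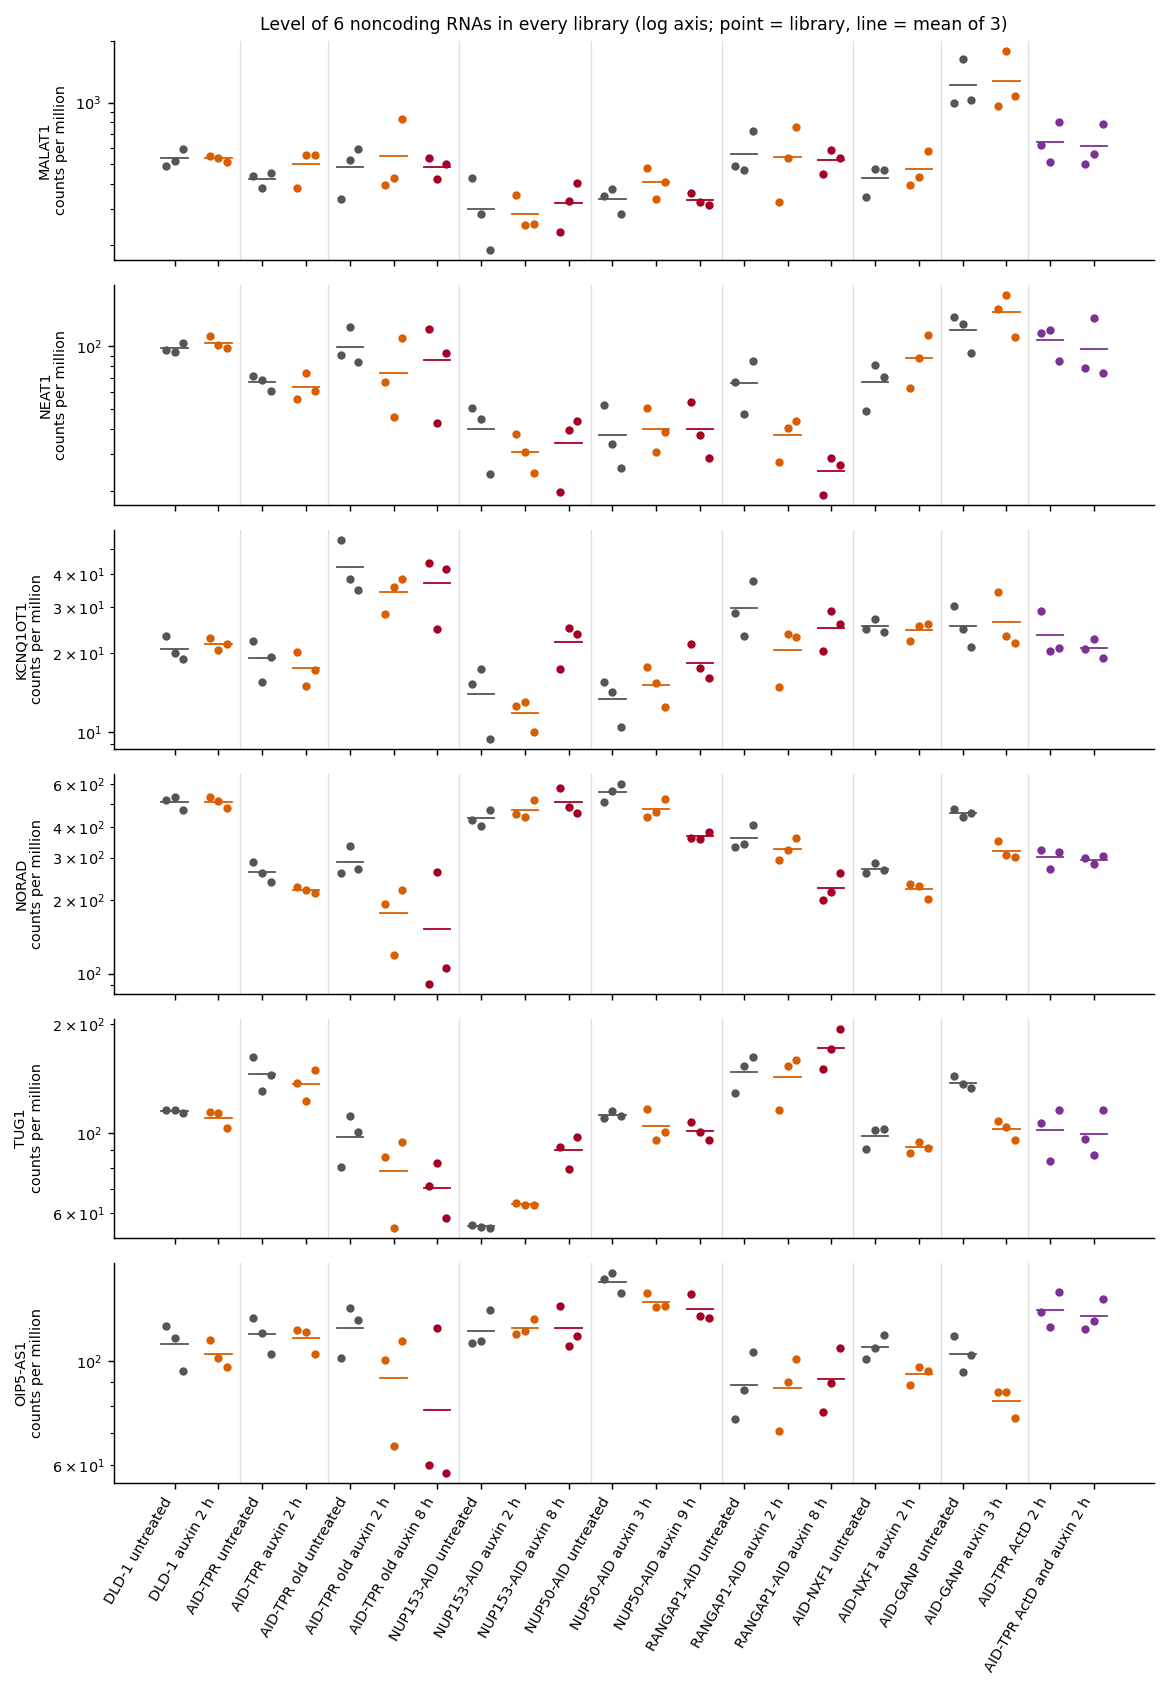
Level of each RNA in CPM (log axis, 1 panel per RNA) in every library; points are libraries, short lines the mean of 3, grey untreated, orange 2 or 3 h of auxin, dark red 8 or 9 h, purple ActD. Lines with another counting pattern are not to be compared by level. MALAT1 in AID-GANP cells spread over 962 to 1795 CPM, and NEAT1 was down to 19.2 CPM in a RANGAP1-AID library after 8 h of auxin.

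The 3 nuclear RNAs varied more between replicates than the other 3. The median coefficient of variation over the 22 groups was 20.6% for MALAT1, 23.7% for NEAT1 and 17.6% for KCNQ1OT1, against 8.49% for NORAD, 9.90% for TUG1 and 8.72% for OIP5-AS1. Over the 10487 genes with at least 50 counts in every library the median was 6.99%, and 90% of these genes lay between 3.94% and 14.4%. The 3 nuclear RNAs thus lay above that range and the other 3 within it.

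The deviations of single libraries from the mean of their group were related between some of the RNAs. Over the 66 libraries MALAT1 and NEAT1 deviated together (Pearson r = 0.606, permutation p = 2e-05, adjusted p = 7e-05 over 15 pairs; Spearman rho = 0.625, permutation p = 3e-05, adjusted p = 0.00011), with r = 0.57 without the 2 libraries farthest from the median of MALAT1. NORAD and OIP5-AS1 did so more closely (r = 0.869, rho = 0.741, both permutation p = 1e-05, the smallest that 100000 permutations can give, adjusted p = 5e-05), with r = 0.82 without the 2 farthest libraries and 0.70 over the 60 libraries left without old AID-TPR auxin. MALAT1 and NORAD were not related in the same way (r = 0.0182, permutation p = 0.914, adjusted p = 0.951; rho = 0.00858, permutation p = 0.956, adjusted p = 0.956), with r = -0.08 without the 2 farthest. The sets of 24, 33 and 9 libraries named above were also taken apart, the last being RANGAP1-AID. Within them r was 0.63, 0.56 and 0.85 for MALAT1 with NEAT1, 0.65, 0.91 and 0.95 for NORAD with OIP5-AS1, and -0.41, -0.03 and 0.75 for MALAT1 with NORAD. In the RANGAP1-AID libraries all 15 pairs were thus positive, from 0.62 to 0.97. Of the other 12 pairs, 4 had adjusted permutation p under 0.05 for both measures, namely NEAT1 with KCNQ1OT1, TUG1 with OIP5-AS1, NORAD with TUG1 and MALAT1 with TUG1. Same-numbered libraries deviated together over all genes in 9 of 17 comparisons, so the 66 points are not independent and these p-values are too small. With the replicate numbers permuted jointly over all groups of each of 9 sets of libraries, an alternative chosen after these values were seen, the permutation p for Pearson's r was 0.00033 for MALAT1 with NEAT1 (adjusted p = 0.00124), 0.00016 for NORAD with OIP5-AS1 (adjusted p = 0.0011) and 0.892 for MALAT1 with NORAD, and the 4 other pairs kept adjusted p under 0.05. The points of each pair share their library, its depth and its RNA preparation.

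**Figure D2:**
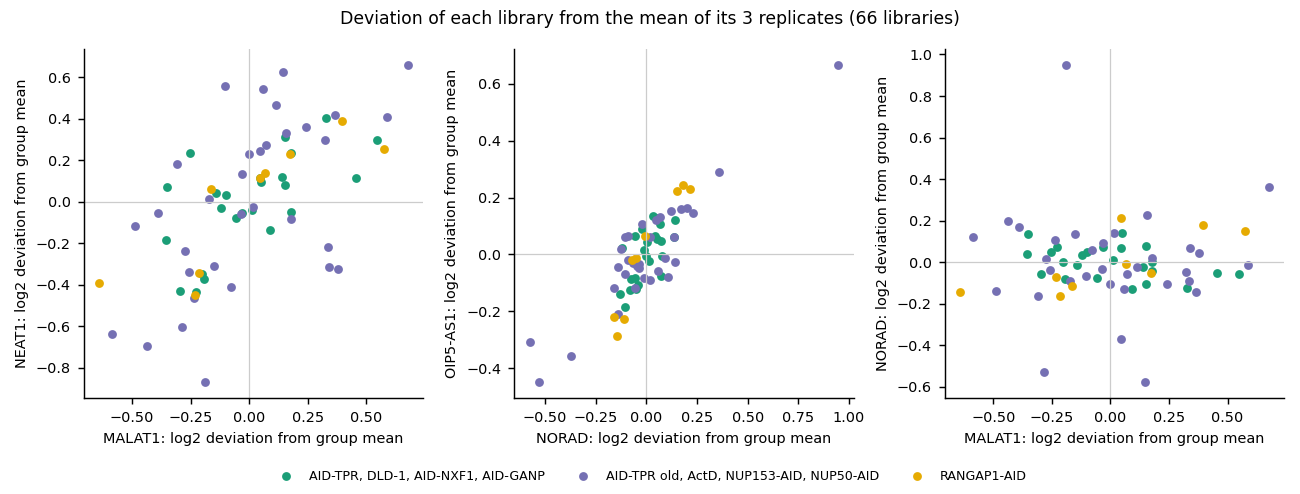
Deviation of each of 66 libraries from the mean of its 3 replicates, on the log2 scale, for MALAT1 against NEAT1, NORAD against OIP5-AS1 and MALAT1 against NORAD. Colours mark RANGAP1-AID, the other libraries with counts on the short inner genes, and those without. The first 2 pairs rise together (r = 0.606 and 0.869) and the last does not (r = 0.0182).

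The quasi-likelihood test of edgeR was run on the counts of each auxin group and the untreated group from the same line and label set, with Benjamini-Hochberg adjustment over the 17812 genes. A gene was called when its adjusted p was under 0.05 and its fold reached 1.3 upward or 0.7 downward, and the tagged lines were not credited with any gene that parental cells also called. Parental cells were given auxin for 2 h alone, and no untreated libraries are labelled 8 or 9 h. The removal therefore does not control for longer auxin or time in culture. Every auxin call of this fit was made at 8 or 9 h. Over 12 auxin and 2 ActD comparisons, 5 calls were made: NEAT1 and NORAD fell in RANGAP1-AID cells at 8 h, NORAD fell in NUP50-AID cells at 9 h, TUG1 rose in NUP153-AID cells at 8 h, and KCNQ1OT1 was lower with ActD than in old untreated libraries, a call that depends on the untreated set. In this fit no member was called at 2 or 3 h of auxin in any line. This changed with a block for the replicate, in comparisons where the replicate numbers pair the libraries. NEAT1 was then called lower in RANGAP1-AID cells at 2 h and higher in AID-NXF1 and AID-GANP cells, as given below. MALAT1, the most abundant of the nuclear RNAs, was not called in any of these 14 comparisons, and its libraries overlapped between treated and control groups in 14 of 14. Its log2 fold change lay between -0.06 and 0.28 with auxin alone.

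**Figure D3:**
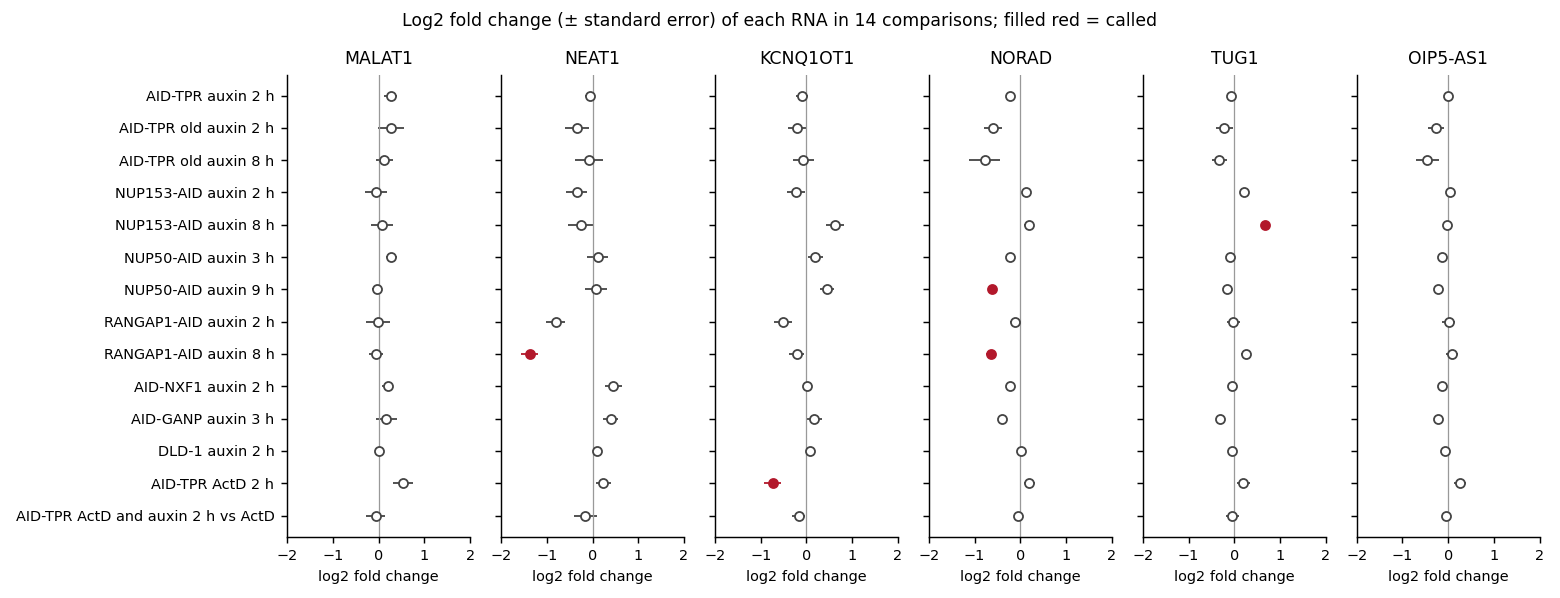
Log2 fold change (points) with its standard error (bars) of the 6 RNAs in 12 auxin and 2 ActD comparisons, 1 row per comparison, without a replicate block. Filled red points passed the call. The 5 red points are NEAT1 (-1.37) and NORAD (-0.64) in RANGAP1-AID cells at 8 h, NORAD (-0.63) in NUP50-AID cells at 9 h, TUG1 (0.67) in NUP153-AID cells at 8 h and KCNQ1OT1 (-0.74) with ActD against old untreated libraries.

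Loss of RANGAP1, which ends the directed transport of proteins through the pore, gave the largest change of a member in the 14 comparisons. NEAT1 was at 67.2, 47.0 and 84.6 CPM in the untreated libraries, at 27.6, 40.1 and 43.5 CPM after 2 h and at 19.2, 28.7 and 26.5 CPM after 8 h (replicates 1 to 3). Neither auxin group overlapped the untreated group. At 8 h NEAT1 fell to 0.386 of its untreated level (log2 fold change -1.37 ± 0.19 (SE), edgeR adjusted p = 0.000634). At 2 h the log2 fold change was -0.80 ± 0.21 (SE) with an edgeR adjusted p of 0.194, so that 0 members were called there, with 2 at an unadjusted p under 0.05 and 1 by DESeq2. The replicate numbers pair the libraries in this comparison, and with a block for the replicate NEAT1 was called at 2 h (-0.80 ± 0.10 (SE), edgeR adjusted p = 5.11e-06). Without the block 0.545% of all genes tested were called at 2 h and 14.8% at 8 h, and 2 of 6 members were called at 8 h. With the block 291 genes rose and 177 fell past both limits at 2 h, before the removal of DLD-1 calls.

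NORAD was unlike NEAT1 at 2 h and fell with it at 8 h. It was at 333, 343 and 408 CPM untreated, 294, 323 and 360.4 CPM at 2 h and 200.2, 216 and 259.9 CPM at 8 h. The groups overlapped at 2 h and not at 8 h. Its log2 fold change was -0.12 ± 0.10 (SE) at 2 h (edgeR adjusted p = 1) and -0.64 ± 0.10 (SE) at 8 h (edgeR adjusted p = 0.00151). Without a replicate block the other nuclear RNAs did not pass: MALAT1 had a log2 fold change of -0.06 ± 0.15 (SE) at 8 h with libraries at 447, 585 and 535 CPM against 490.1, 468 and 724 CPM. KCNQ1OT1 had -0.50 ± 0.20 (SE) at 2 h and -0.21 ± 0.16 (SE) at 8 h. TUG1 had 0.26 ± 0.11 (SE) and OIP5-AS1 0.08 ± 0.13 (SE) at 8 h, and both overlapped their untreated libraries. The replicate numbers pair the libraries at both times. With a block KCNQ1OT1 passed the adjusted p at 2 h (-0.51 ± 0.10 (SE), edgeR adjusted p = 0.00123) and 8 h (-0.21 ± 0.07 (SE), edgeR adjusted p = 0.00892). TUG1 did so at 8 h (0.26 ± 0.05 (SE), edgeR adjusted p = 1.91e-06), and neither reached the fold. Of all genes 1442 passed it at 2 h and 8590 at 8 h. Both 8 h calls stood without any of the 6 libraries.

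In NUP50-AID cells, which lack a basket protein that binds importins once auxin is given, NORAD fell at 9 h and none of the nuclear RNAs passed the test. NORAD was at 511, 565 and 601 CPM untreated, 439.6, 461 and 521 CPM at 3 h and 360.5, 358 and 381 CPM at 9 h. The highest library at 9 h lay below the lowest untreated one. NORAD fell to 0.646 of its untreated level (log2 fold change -0.63 ± 0.07 (SE), edgeR adjusted p = 0.00382), with 0.365% of all genes called and 1 of 6 members. Without auxin 9 h replicate 2 the call was lost, with a log2 fold change of -0.61 and an edgeR adjusted p of 0.0599. In 1 fit over the 60 libraries without ActD it was lost as well (-0.63, edgeR adjusted p = 0.074). KCNQ1OT1 did not pass the test, with libraries going from 15.4, 14.1 and 10.4 CPM to 21.6, 17.5 and 16.0 CPM, groups that do not overlap (log2 fold change 0.45 ± 0.15 (SE), edgeR adjusted p = 0.167). TUG1 (-0.17 ± 0.06 (SE)) and OIP5-AS1 (-0.21 ± 0.07 (SE)) were below untreated in all 3 libraries, with edgeR adjusted p of 0.225 and 0.15. At 3 h, where 0.191% of genes were called, 0 members were, with 2 (MALAT1 and NORAD) at an unadjusted p under 0.05 and 0 by DESeq2. NORAD then had a log2 fold change of -0.23 ± 0.09 (SE) and MALAT1 of 0.28 ± 0.13 (SE).

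In NUP153-AID cells TUG1 rose. It was at 55.6, 55.2 and 54.8 CPM untreated, 63.9, 63.4 and 63.3 CPM at 2 h and 91.5, 79.5 and 97.6 CPM at 8 h, and none of these 3 groups overlapped another. The log2 fold change was 0.21 ± 0.05 (SE) at 2 h (edgeR adjusted p = 0.62) and 0.67 ± 0.08 (SE) at 8 h (edgeR adjusted p = 0.0084), the only member called among 6, with 1.32% of all genes called. Without untreated replicate 1 the 8 h call was lost at an edgeR adjusted p of 0.054, with a log2 fold change of 0.66. KCNQ1OT1 was at 15.2, 17.4 and 9.37 CPM untreated, 12.5, 12.9 and 9.96 CPM at 2 h and 17.4, 25.0 and 23.6 CPM at 8 h. The untreated and 8 h libraries touched (17.4 CPM in each), and its log2 fold change at 8 h was 0.63 ± 0.20 (SE) with an edgeR adjusted p of 0.159. NORAD stood at 0.19 ± 0.10 (SE) and OIP5-AS1 at -0.02 ± 0.10 (SE), and both overlapped untreated. MALAT1 (0.07 ± 0.25 (SE)) and NEAT1 (-0.24 ± 0.29 (SE)) spread widely, NEAT1 over 50.5, 44.6 and 24.2 CPM untreated. At 2 h 0 members were called, with 1 (TUG1) at an unadjusted p under 0.05 and 0 by DESeq2, and 0.0225% of all genes were called. The replicate numbers pair the libraries at 2 h. With a replicate block TUG1 (0.21 ± 0.05 (SE), edgeR adjusted p = 0.0108) and NEAT1 (-0.32 ± 0.07 (SE), edgeR adjusted p = 0.00373) passed the adjusted p there. Of all genes 462 did so, and neither member reached the fold.

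Loss of TPR for 2 h called no member in either label set. In the plain set NORAD was at 288, 259 and 238 CPM untreated and 226, 220.4 and 214 CPM with auxin. The groups did not overlap, and the log2 fold change was -0.22 ± 0.07 (SE) (edgeR adjusted p = 0.266). The other 5 members overlapped, with MALAT1 at 0.26 ± 0.13 (SE), NEAT1 at -0.05 ± 0.11 (SE), KCNQ1OT1 at -0.10 ± 0.13 (SE), TUG1 at -0.07 ± 0.09 (SE) and OIP5-AS1 at 0.00 ± 0.08 (SE). Of all genes 0.477% were called, and of the 6 members 1 (NORAD) had an unadjusted p under 0.05 and 0 were called by DESeq2. The replicate numbers pair the libraries of the plain set. With a replicate block NORAD (-0.22 ± 0.05 (SE), edgeR adjusted p = 0.00104) and MALAT1 (0.24 ± 0.06 (SE), edgeR adjusted p = 0.00501) passed the adjusted p. Of all genes 1986 did so, and neither member reached the fold. In the old set NORAD was at 260.2, 336 and 269.6 CPM untreated and at 194, 119 and 221 CPM in 2 h old1, old2 and old3. Its log2 fold change was -0.60 ± 0.19 (SE) (edgeR adjusted p = 0.266), and -0.41 without the library labelled 2 h old2 (edgeR adjusted p = 0.357). There 0.444% of all genes were called and 0 members, again with 1 at an unadjusted p under 0.05 and 0 by DESeq2.

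At 8 h of TPR loss NORAD was at 91.0, 263 and 105 CPM in the libraries labelled 8 h old1, old2 and old3. Old1 and old3 lay below every untreated library, and old2 lay among them. With all 3 the log2 fold change was -0.78 ± 0.34 (SE) and the edgeR adjusted p 0.198, so that 0 members were called, with 1 at an unadjusted p under 0.05 and 0 by DESeq2, while 3.59% of all genes were called. Without the library labelled 8 h old2 NORAD was called at -1.43 (edgeR adjusted p = 0.000141). OIP5-AS1, at 59.8, 118 and 57.7 CPM against 101, 129.9 and 123 CPM untreated, followed the same libraries. Its log2 fold change was -0.46 ± 0.25 (SE) with all 3 (edgeR adjusted p = 0.304) and -0.88 without old2 (edgeR adjusted p = 0.00133), called in the second case alone. TUG1 was at -0.33 ± 0.16 (SE) with all 3, and without old2 at -0.46 with an edgeR adjusted p of 0.0492, short of the fold of 0.7. MALAT1 was at 0.13 ± 0.19 (SE), NEAT1 at -0.09 ± 0.31 (SE) and KCNQ1OT1 at -0.07 ± 0.23 (SE), and all 3 overlapped untreated. MALAT1 turned to -0.08 when libraries were scaled to ribosomal protein mRNAs, a scaling that moved the median of all genes by -0.17.

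NXF1 carries most mRNAs through the pore. After its loss for 2 h no member was called without a replicate block, and NORAD passed the adjusted p with a small change. Of all genes 21.5% passed the adjusted p there. NEAT1 was at 48.5, 81.5 and 71.3 CPM untreated and 63.1, 87.4 and 113 CPM with auxin, higher in each replicate number but overlapping as groups. Its log2 fold change was 0.45 ± 0.19 (SE) with an edgeR adjusted p of 0.109. With a block for the replicate, whose numbers pair the libraries here, NEAT1 was called (0.45 ± 0.06 (SE), edgeR adjusted p = 7.72e-06), and it was also called without auxin replicate 1 (0.63, edgeR adjusted p = 0.0271). NORAD went from 259.5, 285 and 266 CPM to 233, 229.6 and 204 CPM without overlap (log2 fold change -0.22 ± 0.07 (SE), edgeR adjusted p = 0.0364), a fold of 0.858 that is short of 0.7. OIP5-AS1 (-0.13 ± 0.05 (SE), edgeR adjusted p = 0.0996) was also below every untreated library. MALAT1 had 0.20 ± 0.13 (SE), TUG1 -0.05 ± 0.06 (SE) and KCNQ1OT1 0.01 ± 0.07 (SE), or -0.15 when scaled to ribosomal protein mRNAs, which moved the median of all genes by -0.15. Without the block none of the 6 was called, with 3 at an unadjusted p under 0.05 and 0 by DESeq2, and 8.12% of all genes were called. With the block MALAT1 (0.19 ± 0.05 (SE), edgeR adjusted p = 0.00287) and OIP5-AS1 (-0.13 ± 0.04 (SE), edgeR adjusted p = 0.00885) also passed the adjusted p. Of all genes 6943 did so, and neither of these members reached the fold.

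After loss of GANP for 3 h NORAD and TUG1 passed the adjusted p, short of the fold. Of all genes 28.9% passed the adjusted p there. NORAD went from 474, 442 and 458 CPM untreated to 352, 307 and 302 CPM, and TUG1 from 143, 136 and 133 CPM to 108, 104 and 95.7 CPM. In both, every auxin library lay below every untreated one. NORAD had a log2 fold change of -0.41 ± 0.08 (SE) (edgeR adjusted p = 0.0026) and TUG1 of -0.32 ± 0.07 (SE) (edgeR adjusted p = 0.00549). Their folds of 0.754 and 0.802 passed the adjusted p and not the limit of 0.7, so neither was called. Scaled to ribosomal protein mRNAs, which moved the median of all genes by -0.21, both were (-0.62 and -0.54, edgeR adjusted p = 0.000414 and 0.00189). OIP5-AS1 had -0.22 ± 0.08 (SE) with an edgeR adjusted p of 0.0581. With a replicate block it passed the adjusted p, short of the fold (-0.22 ± 0.05 (SE), edgeR adjusted p = 9.26e-05).

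Without a replicate block none of the nuclear RNAs in AID-GANP cells passed the test. NEAT1 was at 139, 128 and 92.9 CPM untreated and 151, 177 and 111 CPM with auxin (log2 fold change 0.39 ± 0.16 (SE), edgeR adjusted p = 0.0914). It was called with the replicate block, whose numbers pair the libraries (0.39 ± 0.05 (SE), edgeR adjusted p = 5.49e-13), and without auxin replicate 3 (0.55, edgeR adjusted p = 0.0286). MALAT1 was at 997, 1629 and 1032 CPM untreated and 962, 1795 and 1074 CPM with auxin, and replicate 2 was the highest in both groups. MALAT1 had a log2 fold change of 0.17 ± 0.23 (SE) and KCNQ1OT1 of 0.17 ± 0.17 (SE). With the block MALAT1 (0.16 ± 0.05 (SE), edgeR adjusted p = 0.00232) and KCNQ1OT1 (0.15 ± 0.07 (SE), edgeR adjusted p = 0.0396) passed the adjusted p. Of all genes 9372 did so, and neither of these members reached the fold. Without the block these 2 turned to -0.04 and -0.05 under the ribosomal protein scaling. In all 15.5% of genes were called and 0 of 6 members, with 4 at an unadjusted p under 0.05 and 1 (NEAT1) by DESeq2.

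In parental DLD-1 cells, which carry no degron, the 6 members differed by at most 0.10 (log2) between the libraries labelled auxin and labelled untreated. NORAD was at 533, 512 and 482 CPM in those labelled auxin and 520.3, 534 and 472 CPM in those labelled untreated, and MALAT1 at 550.3, 537 and 512 and 489, 521 and 591 CPM. The log2 fold changes of the 6 lay between -0.07 (OIP5-AS1) and 0.10 (NEAT1), with standard errors of 0.05 to 0.08, and all 6 overlapped. None was called, with 0 at an unadjusted p under 0.05 and 0 by DESeq2, and 0.0561% of all genes were called.

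Later times were compared with earlier ones within a line, where a difference was called at an edgeR adjusted p under 0.05 with no limit on the fold. In NUP153-AID cells, 2 of 6 members were higher at 8 h than at 2 h: KCNQ1OT1 (log2 difference 0.85 ± 0.14 (SE), edgeR adjusted p = 0.0116) and TUG1 (0.44 ± 0.08 (SE), edgeR adjusted p = 0.0134), with 3.07% of all genes. KCNQ1OT1 had thus passed from below its untreated mean at 2 h to above it at 8 h. Both differences were lost without auxin 8 h replicate 3 or without auxin 2 h replicate 1, and that of KCNQ1OT1 also without auxin 8 h replicate 2, with edgeR adjusted p from 0.0583 to 0.0835. In RANGAP1-AID cells NEAT1 (-0.58 ± 0.17 (SE), edgeR adjusted p = 0.0462) and NORAD (-0.53 ± 0.10 (SE), edgeR adjusted p = 0.00776) were lower at 8 h, with 15.2% of all genes. Scaled to ribosomal protein mRNAs neither difference was called (NEAT1 -0.55, edgeR adjusted p = 0.261, and NORAD -0.50, edgeR adjusted p = 0.144). The NEAT1 libraries of the 2 times overlapped, and its difference was lost without any of 5 of the 6 libraries, all but auxin 2 h replicate 1 (edgeR adjusted p from 0.0616 to 0.165). With the replicate block, KCNQ1OT1 (0.30 ± 0.07 (SE), edgeR adjusted p = 0.000692) and TUG1 (0.28 ± 0.05 (SE), edgeR adjusted p = 7.06e-05) were higher at 8 h as well. Of all genes 6631 then differed between the 2 times.

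In NUP50-AID cells NORAD was lower at 9 h than at 3 h (-0.40 ± 0.07 (SE), edgeR adjusted p = 0.047), 1 member of 6, with 0.331% of all genes. The difference kept its sign and lost the call without any of 5 of the 6 libraries, all but auxin 3 h replicate 1, with edgeR adjusted p from 0.102 to 0.363. Scaling to ribosomal protein mRNAs also ended it (-0.41, edgeR adjusted p = 0.0716). With the replicate block MALAT1 was also lower at 9 h (-0.31 ± 0.06 (SE), edgeR adjusted p = 0.00198), and 825 of all genes differed. In old AID-TPR cells 0.0% of genes and 0 members differed between libraries labelled 8 h and labelled 2 h, with 48 genes and 0 members at an unadjusted p under 0.05 by edgeR. DESeq2 was not run on times. Without both auxin libraries labelled old2, a setting chosen after these values were seen, 832 genes and 2 members were lower or higher at 8 h: NORAD (-1.01, edgeR adjusted p = 0.00697) and OIP5-AS1 (-0.77, edgeR adjusted p = 0.0123), both lower.

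**Figure D4:**
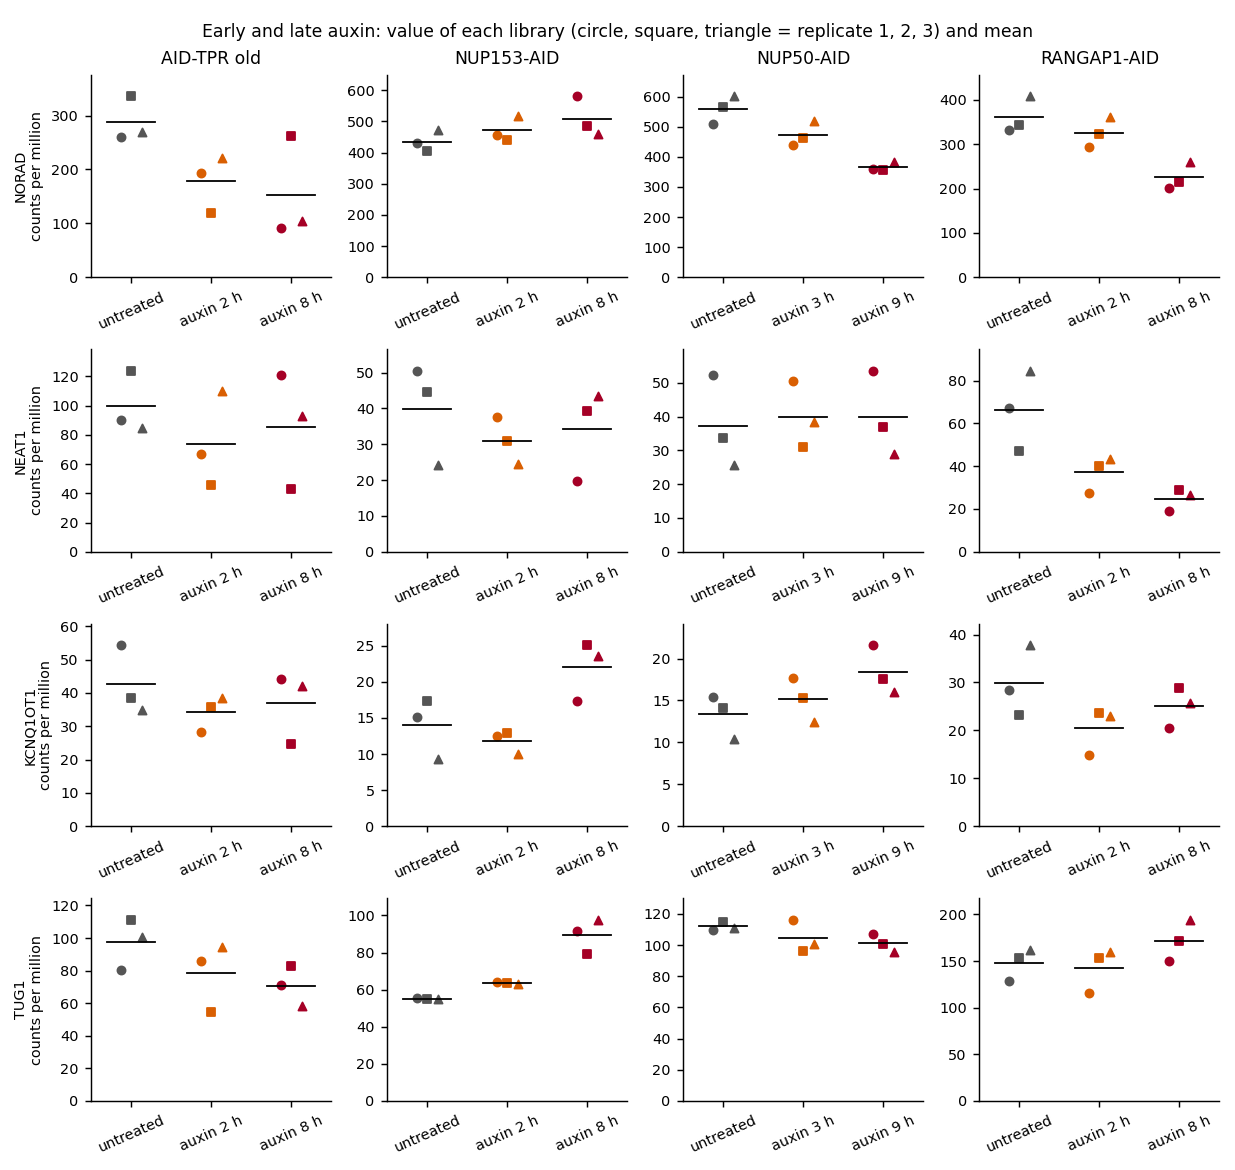
NORAD, NEAT1, KCNQ1OT1 and TUG1 (rows) in CPM on axes from 0, in 4 lines (columns) untreated and at an early and a late time of auxin; circles, squares and triangles are replicates 1, 2 and 3 (old1, old2 and old3 in the first column), lines the mean of 3. In the old AID-TPR column the NORAD square (old2) is low at 2 h, 119 CPM, and high at 8 h, 263 CPM, against the other replicates.

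Whether the auxin response differed between loss of TPR and loss of another protein was tested by the interaction of auxin and line, with the AID-TPR response (plain set, 2 h) minus the other response as the value. All of these tests share the 6 AID-TPR libraries. No member passed an edgeR adjusted p of 0.05 in any of the 6 such tests, while 0.646% of all genes differed from NUP153-AID, 0.124% from NUP50-AID, 0.298% from RANGAP1-AID, 2.28% from AID-NXF1, 5.77% from AID-GANP and 0.825% from DLD-1. At an unadjusted p under 0.05, edgeR gave NORAD and TUG1 against NUP153-AID (-0.35 ± 0.11 (SE) and -0.28 ± 0.10 (SE)), NEAT1 against RANGAP1-AID (0.75 ± 0.26 (SE)), TUG1 against AID-GANP (0.26 ± 0.11 (SE)) and NORAD against DLD-1 (-0.24 ± 0.09 (SE)). DESeq2 was not run on these. Where numbers pair the libraries of both lines, the replicate block made these differ at an edgeR adjusted p under 0.05: NORAD and TUG1 against NUP153-AID (adjusted p = 0.000777 and 0.0139), NEAT1 against RANGAP1-AID (log2 0.73, adjusted p = 0.00502) and against AID-NXF1 (-0.49, adjusted p = 0.00115), and 4 members against AID-GANP. These 4 were NEAT1 (-0.44, adjusted p = 0.000146), NORAD (0.20, adjusted p = 0.0315), TUG1 (0.26, adjusted p = 0.00683) and OIP5-AS1 (0.23, adjusted p = 0.0215). The block also raised the counts over all 17812 genes. With it 816 genes differed against NUP153-AID, 946 against RANGAP1-AID, 2370 against AID-NXF1 and 3937 against AID-GANP. With this block NEAT1 was thus lower after loss of TPR than after loss of NXF1 or GANP, and higher than after loss of RANGAP1.

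The level of each nuclear RNA relative to the exported one was taken as the log2 ratio of counts to NORAD in the same library, which does not depend on how libraries are scaled. Over 14 comparisons and 3 nuclear RNAs, 42 exact two-sided permutation tests were made. With 3 libraries against 3 the smallest p possible is 0.1, and the smallest adjusted p was 0.42, so none could pass. The ratios did not overlap between treated and control libraries in 10 of the 42, while over all other tested genes and the same 14 comparisons 33.5% of the ratios to NORAD did not, a larger share. MALAT1 to NORAD was higher in 3: by 0.50 and 0.59 (log2) in NUP50-AID cells at 3 and 9 h and by 0.60 in RANGAP1-AID cells at 8 h. NEAT1 to NORAD was lower in RANGAP1-AID cells (-0.68 at 2 h and -0.71 at 8 h) and higher in AID-GANP cells (0.80). KCNQ1OT1 to NORAD was higher in NUP50-AID cells at 9 h (1.08), in RANGAP1-AID cells at 8 h (0.45) and in AID-GANP cells (0.56), and lower with ActD (-0.93). The ActD difference was 0.08 against the plain untreated libraries. NORAD itself fell in NUP50-AID cells at 9 h and in RANGAP1-AID cells at 8 h. With TUG1 or OIP5-AS1 as the reference, the differences in NUP50-AID cells at 9 h were 0.13 and 0.18 for MALAT1 and 0.62 and 0.67 for KCNQ1OT1. In RANGAP1-AID cells at 8 h the MALAT1 and KCNQ1OT1 differences were then negative (-0.30 and -0.13, and -0.45 and -0.28). In DLD-1 cells the 3 ratios to NORAD differed by 0.00 to 0.09.

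With transcription blocked for 2 h, KCNQ1OT1 was called lower against the old untreated libraries and not against the plain ones. KCNQ1OT1 was at 54.3, 38.5 and 34.9 CPM in untreated old AID-TPR libraries and 29.0, 20.3 and 20.9 CPM with ActD. These groups did not overlap, and KCNQ1OT1 was at 0.599 of its level in old untreated libraries (log2 fold change -0.74 ± 0.18 (SE), edgeR adjusted p = 0.0151). It was the only member called, where 21.1% of all genes were. Among the 2884 lncRNA genes tested, 502 fell (17.4%) and 36 rose, with a median log2 fold change of -0.23, against a median of 0.00 over all genes. In the plain untreated libraries KCNQ1OT1 was at 22.3, 15.6 and 19.3 CPM, which overlaps the ActD libraries.

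Against the plain untreated libraries, a control added after these values were seen, the log2 fold change of KCNQ1OT1 with ActD was 0.27 ± 0.15 (SE), edgeR adjusted p = 0.171, of the opposite sign and not called. Of the other members MALAT1 (0.58 ± 0.15 (SE), edgeR adjusted p = 0.0108) and NEAT1 (0.65 ± 0.13 (SE), edgeR adjusted p = 0.00187) were then called higher and TUG1 (-0.53 ± 0.12 (SE), edgeR adjusted p = 0.00497) lower, while NORAD (0.19 ± 0.09 (SE), edgeR adjusted p = 0.108) and OIP5-AS1 (0.15 ± 0.09 (SE), edgeR adjusted p = 0.186) were not called. Of all genes 43.8% were called against this control. MALAT1, NEAT1, KCNQ1OT1 and TUG1 hold short genes that were counted in the plain libraries and not in the ActD ones. Those inside KCNQ1OT1 held few counts, 10 to 39, beside 261 to 1566 for the gene itself. An effect of ActD and one of counting or of the set of libraries cannot be told apart here. NORAD and OIP5-AS1, which hold no such genes, and MALAT1 and NEAT1, which do, kept their sign against both sets. The values below are against the old set.

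MALAT1, known as a long-lived RNA, was at 336, 526 and 596 CPM untreated and 619, 510.4 and 802 CPM with ActD (log2 fold change 0.54 ± 0.22 (SE), edgeR adjusted p = 0.0968). DESeq2 called it at an adjusted p of 0.0476, and edgeR did without ActD replicate 2 (0.68, adjusted p = 0.0498). NEAT1 had 0.24 ± 0.16 (SE), NORAD 0.20 ± 0.12 (SE), TUG1 0.20 ± 0.15 (SE) and OIP5-AS1 0.26 ± 0.12 (SE), and all 4 overlapped untreated. These are shares of the RNA that was left: scaled to ribosomal protein mRNAs, which are long-lived, the median of all genes moved by -0.31. KCNQ1OT1 was then at -1.07 and MALAT1 at 0.19, while NEAT1 (-0.12), NORAD (-0.15), TUG1 (-0.14) and OIP5-AS1 (-0.09) turned negative. The ActD and the old libraries carry different replicate numbers, and whether they were made together is not given in the sources used here.

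Auxin on top of ActD gave no call among the members. NORAD was at 298, 281 and 304 CPM with both and 322, 269.7 and 316 CPM with ActD, and the log2 fold changes of the 6 lay between -0.17 (KCNQ1OT1) and -0.04. No gene was called by edgeR (0.0%), with 78 genes and 0 members at an unadjusted p under 0.05, and 0 genes by DESeq2. The auxin effect with ActD minus that without ActD (old set, 2 h) differed at an edgeR adjusted p under 0.05 in 0.0225% of all genes and in 0 members, with 1 (NORAD, 0.56 ± 0.23 (SE), edgeR adjusted p = 0.635) at an unadjusted p under 0.05. That test holds the library labelled 2 h old2, and without it the NORAD value was 0.37 (edgeR adjusted p = 0.812).

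**Figure D5:**
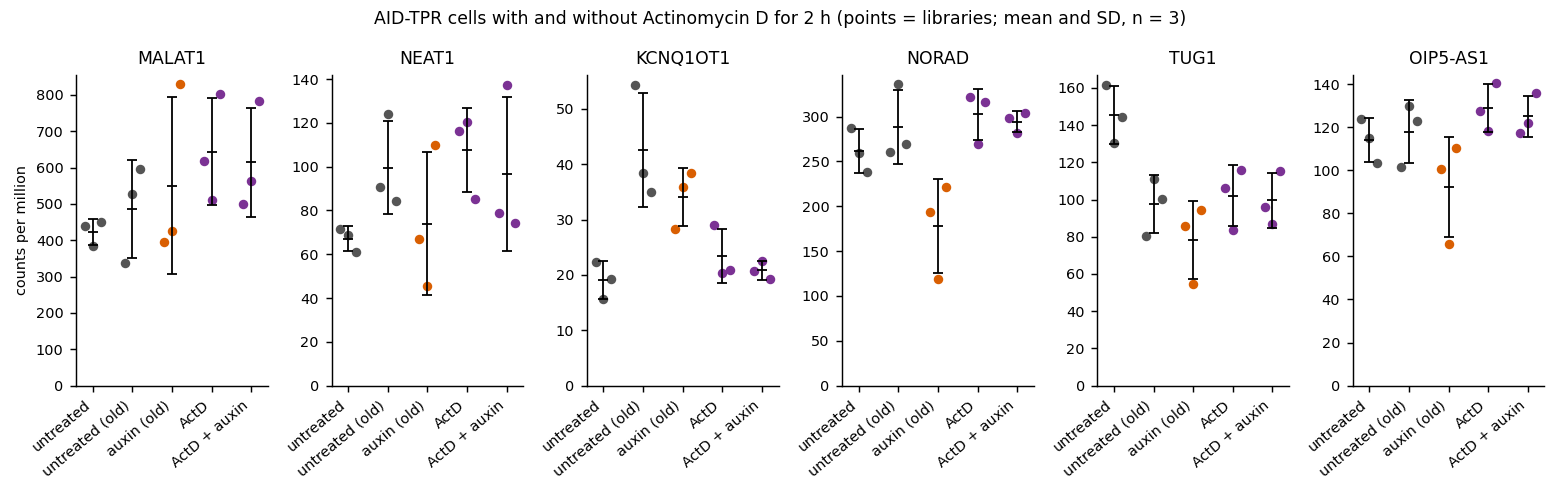
The 6 RNAs in CPM, on axes from 0, in AID-TPR cells untreated (plain set and old set), with auxin (old set), with ActD and with ActD and auxin, each for 2 h; points are libraries, bars the mean and SD of 3. The 6 KCNQ1OT1 libraries with ActD, at 19.2 to 29.0 CPM, lie below the 3 old untreated ones, at 34.9 to 54.3 CPM, and beside the 3 plain ones, at 15.6 to 22.3 CPM.

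The proteins that these RNAs work with were followed in lists chosen by function, each tested over all 17812 genes. Of 12 paraspeckle proteins and NEAT1 processing factors, 0 were called at 2 or 3 h of auxin in 6 of 7 tagged groups and 1 fell in AID-GANP cells: RBM14 (-0.53, edgeR adjusted p = 0.00058), an RNA-binding protein needed to build paraspeckles. Of all genes 15.5% were called in AID-GANP cells, 8.12% in AID-NXF1 cells and 0.0225% to 0.545% in the other 5 groups, so these counts are near the background. RBM14 was also lower in old AID-TPR cells at 8 h (-0.69, edgeR adjusted p = 0.042). In RANGAP1-AID cells at 8 h, where NEAT1 fell, 1 of 12 rose, TARDBP (0.45, edgeR adjusted p = 0.00205), and 0 fell, where 14.8% of all genes were called. The median of the list lay between 0.00 and 0.15 in the 12 auxin comparisons, against -0.01 to 0.01 for all genes. With ActD NUDT21 (0.57, edgeR adjusted p = 0.009) and NONO (0.38, edgeR adjusted p = 0.0145) rose, a cleavage factor that acts on the short form of NEAT1 and a core paraspeckle protein. These are relative levels as above.

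Of 10 nuclear speckle proteins and factors acting on MALAT1, SRSF2 (-0.72, edgeR adjusted p = 7.13e-05) and SRSF3 (-0.54, edgeR adjusted p = 0.000824) fell in RANGAP1-AID cells at 8 h, both splicing factors of the SR family, and the median of the list was -0.14 against -0.01 for all genes. SRSF3 rose instead in old AID-TPR cells at 8 h (0.54, edgeR adjusted p = 0.0288). SON, the core of speckles, rose in NUP50-AID cells at 9 h (0.44, edgeR adjusted p = 0.0111), and PNN, a speckle protein, fell in AID-GANP cells (-0.72, edgeR adjusted p = 0.000247). With ActD, SRRM2, a speckle scaffold, fell (-0.89, edgeR adjusted p = 0.00808) and, of the 2 that rose, SRSF3 was at 0.42 (edgeR adjusted p = 0.0384). In the other 7 auxin comparisons of tagged lines and in DLD-1 cells 0 of 10 were called. Of all genes 14.8% were called in RANGAP1-AID cells at 8 h, 15.5% in AID-GANP cells and 21.1% with ActD. The counts of the list there are near these shares. In old AID-TPR cells at 8 h 3.59% of all genes were called and in NUP50-AID cells at 9 h 0.365%.

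Of 9 genes of nuclear RNA decay, RBM7 of the NEXT complex fell in AID-NXF1 cells (-0.66, edgeR adjusted p = 0.000383). In AID-GANP cells ZFC3H1 of the PAXT connection fell (-0.69, edgeR adjusted p = 0.00123) and ZCCHC8 of NEXT rose (0.41, edgeR adjusted p = 0.00433), with a median of the list of -0.25 against 0.01 for all genes. MTREX, the helicase of both, rose with ActD (0.50, edgeR adjusted p = 0.00897), and 0 of 9 were called elsewhere. Of all genes 8.12% were called in AID-NXF1 cells, 15.5% in AID-GANP cells and 21.1% with ActD, so these counts are near the background. Of the proteins that bind NORAD, RBMX rose in old AID-TPR cells at 8 h (0.40, edgeR adjusted p = 0.0495), where 3.59% of all genes were called. KHDRBS1 was called in none of the 14 comparisons.

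The genes of the imprinted domain around KCNQ1OT1 were called, 1 or 2 of 7 at a time, in 3 of the 14 comparisons. These are the 3 with the highest shares of all genes called, 21.1% with ActD, 15.5% in AID-GANP cells and 14.8% in RANGAP1-AID cells at 8 h, and the counts are near those shares. With ActD 1 of 7 fell, KCNQ1 (-1.17, edgeR adjusted p = 0.0275), the host gene on the opposite strand, whose reads cannot be told apart from those of KCNQ1OT1 if strand was not used in counting. In AID-GANP cells TSSC4 (-0.70, edgeR adjusted p = 0.000145) and SLC22A18 (-0.53, edgeR adjusted p = 0.0092) fell, and SLC22A18 did in RANGAP1-AID cells at 8 h (-0.52, edgeR adjusted p = 0.0126). KCNQ1OT1 was not called in either, and none of the 7 was called in NUP153-AID or NUP50-AID cells at the later time.

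Among 12 other long noncoding RNAs, LINC00511 rose early in 3 lines, by 0.67 (log2) in NUP153-AID cells at 2 h (edgeR adjusted p = 0.041), 0.72 in RANGAP1-AID cells at 2 h (edgeR adjusted p = 0.0428) and 0.65 in AID-GANP cells (edgeR adjusted p = 0.000544). In NUP153-AID cells at 8 h it was below untreated (-0.53, edgeR adjusted p = 0.012). MIR17HG, the host of the miR-17-92 cluster, fell in AID-NXF1 cells (-1.04, edgeR adjusted p = 0.000463), in RANGAP1-AID cells at 8 h (-0.79, edgeR adjusted p = 0.0188) and with ActD (-1.91, edgeR adjusted p = 0.000231). UCA1 fell in RANGAP1-AID cells at 8 h (-0.94) and with ActD (-1.39), MIR22HG in AID-NXF1 cells (-0.60), and HCG18 in old AID-TPR cells at 8 h (-1.41), all at edgeR adjusted p under 0.05. In RANGAP1-AID cells at 8 h 4 of the 12 fell and 1 rose, beside 6.62% and 8.23% of all genes, and with ActD 3 fell and 1 rose, beside 12.3% and 8.79%. Over all 2884 lncRNA genes, 336 fell (11.7%) and 120 rose (4.16%) in AID-GANP cells, where 11.5% and 3.93% of all genes did. In RANGAP1-AID cells at 8 h 294 fell (10.2%) and 161 rose (5.58%), beside 6.62% and 8.23% of all genes, and in AID-NXF1 cells 125 fell (4.33%) and 111 rose (3.85%), beside 5.93% and 2.18%. In NUP153-AID cells at 8 h, where TUG1 rose, 3 fell (0.104%) and 54 rose (1.87%), beside 0.404% and 0.915% of all genes.

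The ActD values of these lists also depend on the untreated set. Of the 11 list genes called with ActD against old untreated libraries, MIR17HG (-2.47 ± 0.18 (SE), edgeR adjusted p = 1.88e-06) and LINC00511 (-0.93 ± 0.15 (SE), edgeR adjusted p = 0.000601) were called lower against the plain ones too, and the other 9 were not. Of those named above, NONO (0.36 ± 0.07 (SE), edgeR adjusted p = 0.00166) and NUDT21 (0.29 ± 0.10 (SE), edgeR adjusted p = 0.0343) kept the direction short of the fold. SRRM2 (-0.17 ± 0.15 (SE), edgeR adjusted p = 0.369), SRSF3 (0.08 ± 0.11 (SE), edgeR adjusted p = 0.543), MTREX (0.15 ± 0.09 (SE), edgeR adjusted p = 0.182) and UCA1 (-0.61 ± 0.28 (SE), edgeR adjusted p = 0.087) kept the sign and did not pass, and KCNQ1 (0.10 ± 0.26 (SE), edgeR adjusted p = 0.746) turned positive.

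The values of these lists in old AID-TPR cells rest on the libraries labelled old2. Without the library labelled 8 h old2, the 4 list genes named above for 8 h were called in the same direction: RBM14 (-0.86, edgeR adjusted p = 0.000738), SRSF3 (0.54, edgeR adjusted p = 0.00723), RBMX (0.46, edgeR adjusted p = 0.00856) and HCG18 (-1.80, edgeR adjusted p = 0.00152). Another 8 genes of the lists were called there only without that library, and they are named after their values were seen. Of these, TARDBP (-0.79, edgeR adjusted p = 0.0468), the decay factors ZFC3H1 (-0.76, edgeR adjusted p = 0.0154) and PABPN1 (-0.97, edgeR adjusted p = 0.000418) and SLC22A18 (-0.74, edgeR adjusted p = 0.0419) fell. PNN (0.41, edgeR adjusted p = 0.0171), ZCCHC8 (0.62, edgeR adjusted p = 0.00727), MIR17HG (0.80, edgeR adjusted p = 0.0109) and LINC00511 (0.48, edgeR adjusted p = 0.0144) rose. At 2 h no list gene was called with all 3 libraries, and without the library labelled 2 h old2 LINC00511 rose (1.07, edgeR adjusted p = 0.00517).

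The genes whose levels followed each member most closely were sought over the 60 libraries without ActD, each taken as its log2 difference from the untreated mean of its line and label set, among 10543 genes with at least 50 counts in every one of them. Among the genes most like NORAD were EBLN3P (r = 0.906) and C6orf62 (0.893), and OIP5-AS1 was most like FPGT (0.904), RAP2A (0.904) and ZNF770 (0.900). NEAT1 was most like MIR23AHG (0.878), the unnamed gene ENSG00000257178 (0.837) and MIRLET7BHG (0.837), which are hosts of microRNAs for the first and last of these. TUG1 was most like PURB (0.850), TIMM8A (0.820) and C6orf120 (0.813). KCNQ1OT1 (HOXA-AS3 0.769, SNAPC4 0.757, HOXB5 0.752) and MALAT1 (HNRNPA3 0.753, NIPBL 0.728, TAF15 0.718) had no gene above 0.8. These correlations are a description over libraries that share lines, treatments and depth, and the old AID-TPR auxin libraries that stand apart are among them.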

How the data were processed

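Total RNA of 66 cultures was depleted of ribosomal RNA and sequenced. The authors deposited, per library, raw read counts per Ensembl gene. Per the labels' processing notes the tools were CASAVA 1.8.2, STAR 2.6.1c and featureCounts 1.5.2 with GRCh38. Whether strand was used in counting is not given in the sources used here. Groups were taken from the labels, and each holds 3 libraries, described in the study's methods as independent biological replicates.

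Counts were tested with edgeR 4.0.16 (quasi-likelihood, TMM, R 4.3.3) on the libraries of each comparison, with genes kept at over 1 CPM in at least 4 of the 60 libraries without ActD (17812 genes). Fold changes are given with their standard error, and p-values were adjusted by the Benjamini-Hochberg method over all genes. Plain CPM is given per library, and CPM per kb of GENCODE 44 exons where RNAs are compared with each other. Ratios to NORAD were tested by exact permutation, and deviations from group means (pseudocount 0.5 CPM) by 100000 permutations within groups (scipy 1.17.1). Figures were drawn with matplotlib 3.10.9. The fits were checked on simulated data.

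Replicate numbers were taken to pair libraries where all 3 same-numbered pairs deviated together from their group means (r over 0.1). This held in 9 of 17 comparisons with shared numbers: AID-TPR 2 h (plain set), NUP153-AID 2 h, RANGAP1-AID 2 h and 8 h, AID-NXF1, AID-GANP, auxin with ActD, and the times of NUP50-AID and RANGAP1-AID. In these, the fit with a replicate block is given where it changed a call or brought a member under the adjusted p.

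All 6 members are named in every comparison. Of each other list, its counts and at most the 2 called genes of largest change are named. Some genes of the lists are not reported here. Members and lists were chosen with earlier results of these data known. Alternatives were RLE factors, library sizes alone, scaling to ribosomal protein mRNAs, DESeq2 1.42.0, other filters, no removal of genes called in DLD-1 cells, a limit of 1.3-fold either way, all AID-TPR pairs together, 1 fit over 60 libraries, the replicate block, leaving out each library, and another reference RNA for the ratios. The plain untreated libraries as control for ActD, joint permutation of replicate numbers and leaving out both auxin libraries labelled old2 were added after the data were seen.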

Additional observations from a re-analysis of the deposited data

Results flagged for a closer look

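In 5 cases a member differed between an early and a late time of auxin in the same line, by edgeR's test of the late against the early libraries with Benjamini-Hochberg adjustment. No untreated libraries are labelled 8 or 9 h. In NUP153-AID cells KCNQ1OT1 was 0.85 (log2) higher at 8 h than at 2 h (adjusted p = 0.0116, 3 of 3 libraries above every 2 h library) and TUG1 0.44 higher (adjusted p = 0.0134, 3 of 3). In NUP50-AID cells NORAD differed by -0.40 between 9 h and 3 h (adjusted p = 0.047, 3 of 3 below). In RANGAP1-AID cells NORAD differed by -0.53 between 8 h and 2 h (adjusted p = 0.00776, 3 of 3 below) and NEAT1 by -0.58 (adjusted p = 0.0462), where the libraries of the 2 times overlapped. As given above, all of these but NORAD in RANGAP1-AID cells lost the call when some single libraries were left out. Scaling to ribosomal protein mRNAs ended the differences of NORAD in both lines and that of NEAT1.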

How the results depend on the processing

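Of 374 alternative counts of members called, 315 stayed within 1.5 times the main count, 18 were lower and 41 higher, and the only fold changes to change sign with a call were those of KCNQ1OT1 and TUG1 with ActD. The causes of the changes below were not tested.

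With no filter on low counts, the members called were 1 in old AID-TPR cells at 2 h and 1 at 8 h, 2 in NUP153-AID cells at 8 h, 2 in NUP50-AID cells at 9 h, 1 in RANGAP1-AID cells at 2 h, 1 in AID-NXF1, 1 in AID-GANP and 2 with ActD. Between times there were 2 in NUP50-AID and 4 in RANGAP1-AID cells, and in the tests against loss of TPR 1 each for RANGAP1-AID, AID-NXF1 and AID-GANP. With 1 fit over the 60 libraries, 1 member was called in old AID-TPR cells at 2 h and 1 at 8 h, and 0 in NUP50-AID cells at 9 h. DESeq2 called 2 in NUP153-AID cells at 8 h, 1 in RANGAP1-AID cells at 2 h, 1 in AID-GANP and 2 with ActD. Scaling to ribosomal protein mRNAs gave 2 in AID-GANP, and 0 between times in NUP50-AID and in RANGAP1-AID cells. Library sizes alone and a fold of 1.3 in both directions gave 1 each in AID-GANP. Without both auxin libraries labelled old2, a setting chosen after seeing the data, 2 members differed between times in old AID-TPR cells.

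With the replicate block, 1 member was called in RANGAP1-AID cells at 2 h, 1 in AID-NXF1 and 1 in AID-GANP, 2 and 4 differed between times in NUP50-AID and RANGAP1-AID cells, and 2, 1, 1 and 4 differed from loss of TPR for NUP153-AID, RANGAP1-AID, AID-NXF1 and, last, AID-GANP. Where the numbers do not pair the libraries, the block gave 1 (NORAD) in old AID-TPR cells at 8 h, 2 (NORAD and KCNQ1OT1) in NUP50-AID cells at 9 h and 1 (NORAD) against DLD-1. Over all genes, those at an adjusted p under 0.05 went with the block from 118 to 1986 in AID-TPR cells at 2 h, from 106 to 1442 in RANGAP1-AID cells at 2 h, from 3835 to 6943 in AID-NXF1 and from 5152 to 9372 in AID-GANP. Between times they went from 59 to 825 in NUP50-AID and from 2707 to 6631 in RANGAP1-AID cells. Against loss of TPR the block gave 816 genes for NUP153-AID, 946 for RANGAP1-AID, 2370 for AID-NXF1 and 3937 for AID-GANP.

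Leaving out 1 library at a time, the members called ranged from 0 to 2 in old AID-TPR cells at 8 h, 0 to 1 in NUP153-AID cells at 8 h, NUP50-AID cells at 9 h, AID-NXF1 and AID-GANP, and 1 to 2 with ActD. Between times they ranged from 0 to 2 in NUP153-AID, 0 to 1 in NUP50-AID and 1 to 2 in RANGAP1-AID cells.

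With TUG1 and then OIP5-AS1 in place of NORAD, the log2 ratio differences became -0.16 and -0.12 for NEAT1 in old AID-TPR cells at 2 h, 0.13 and 0.18 for MALAT1 and 0.62 and 0.67 for KCNQ1OT1 in NUP50-AID cells at 9 h, and -0.30 and -0.13 for MALAT1, -1.61 and -1.44 for NEAT1 and -0.45 and -0.28 for KCNQ1OT1 in RANGAP1-AID cells at 8 h. MALAT1 and KCNQ1OT1 in RANGAP1-AID cells thus changed sign with the reference RNA. With the plain AID-TPR untreated libraries as the control for ActD, a choice made after seeing the data, 3 members were called, and also 3 with the replicate block, whose numbers do not pair these libraries. KCNQ1OT1 was then at 0.27 and TUG1 at -0.53, or 0.26 and -0.54 with the block, and the ratios to NORAD differed by 0.46 for NEAT1 and 0.081 for KCNQ1OT1. MALAT1 and NEAT1, also called, kept their sign.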
